A study of Mus musculus with 26 samples.

Results

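The Egr and Nr4a families are transcription factors whose genes are switched on within a short time of T cell receptor (TCR) signaling, and the 7 genes described here were taken from the deposited table of 46517 gene symbols by name. They were the zinc finger factors Egr1, Egr2 and Egr3, the orphan nuclear receptors Nr4a1, Nr4a2 and Nr4a3, and Nab2, a corepressor that binds Egr proteins. All 7 passed a filter on low values (a normalized count of at least 10 in at least 2 libraries), as did 16372 genes in all. RNA was sequenced from sorted mouse thymocytes of 3 TCR transgenic lines at 3 stages of CD8 T cell positive selection, and the 26 libraries made 9 groups of 3, except for the 2 libraries of TG6 at late positive selection. TG6 cells carry a receptor of low self-reactivity and come from TG6tg H2b/d mice on a background given as C57/BL6 x B6.C-H2d/bByJ, F5 cells (F5tg Rag1KO, on C57/BL6) carry one of intermediate self-reactivity and OT-1 cells (OT-1tg Rag2KO, on C57/BL6) carry one of high self-reactivity. The stages were CD4+CD8+CXCR4+CCR7- cells (early), CD4+CD8+CXCR4-CCR7+ cells (late) and CD4-CD8+CXCR4-CCR7+ cells (mature CD8SP). All groups carry a transgenic TCR, and the labels give no treatment. The ages of the mice are not in the labels. TG6 differs from the other lines in strain and MHC haplotype and its labels name no Rag deletion, which would stop endogenous receptor rearrangement, so receptor, strain and Rag status cannot be told apart in any comparison with TG6.

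In thymocytes, TCR signals reach the Egr genes mainly through the Ras and ERK pathway and serum response factor, while Nr4a genes are also driven by calcium signals through MEF2 and CREB proteins. Egr proteins promote survival and maturation of positively selected cells, and Egr2 and Egr3 also hold TCR responses in check. Nr4a1, also called Nur77, is widely used as a reporter of TCR signal strength, and together with Nr4a3 it takes part in the deletion of strongly self-reactive thymocytes. Nab2 is itself induced by Egr proteins and closes a negative feedback loop on them. The question set by the design is how the level of self-reactivity and the stage of selection relate to the expression of such genes.

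Total normalized counts per library lay between 16134786 and 18944173. The T cell gene Cd3e was read at 4798 to 8667 in all 26 libraries and Cd8a at 15090 to 41210, and Cd4, which the mature cells had been sorted to lack, at 62.8 to 22730. Other markers of the sorted cells varied more, with Rag1 at 24.07 to 58360, Rag2 at 1.545 to 2529 and Dntt at 622 to 20440. At early, the sum of 11 such markers differed by line. It was 163500 to 179300 in TG6, 101800 to 117400 in F5 and 56500 to 67640 in OT-1. No granulocyte marker passed the filter, and the natural killer cell gene Ncr1 was listed at 0 in every library. The summed level of 12 dendritic cell and macrophage markers was 169 to 3007, highest in a TG6 mature library. The sum of 7 innate-like and gamma delta T cell markers was 1803 to 3883 in TG6, 6530 to 10050 in F5 and 6684 to 12750 in OT-1, most of it from Trdc. Zbtb16, the defining factor of innate-like cells, reached at most 2.95. Of the other markers, Sox13 reached 3616 (median 144.7), Tcrg-C1 404, Tcrg-C2 158.8 and Klrb1c 15.29. The sum of 6 erythroid markers was 1102 to 1280 in the 3 libraries of OT-1 replicate 3 and 69.1 to 417 in the other OT-1 libraries, and over the 26 libraries its deviations from the group means had an r of 0.55 with Nab2, -0.42 with Nr4a3 and -0.26 to 0.20 with the other members. The part of these signals in the results below was not tested. These are bulk samples, in which fewer cells that express a gene and less RNA per cell cannot be told apart.

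Per kilobase of annotated exon, Nr4a1 and Nab2 were the most abundant of the 7 genes. The union of annotated exons was 3.51 kb for Nr4a1 and 2.94 kb for Nab2, and the median over libraries was 1029 normalized counts per kilobase for Nr4a1 and 714 for Nab2. Nr4a1 ranked first in 17 libraries and Nab2 in the other 9. Egr1 followed with a median of 242 per kilobase, and Nr4a3 (50.5), Egr2 (47.1), Nr4a2 (42.5) and Egr3 (22.0) were lower. Egr3 ranked last in 16 of the 26 libraries, Nr4a2 in 7, Nr4a3 in 2 and Egr2 in 1. The gene bodies lie on GRCm38 at chr10:67535475-67542188 (Egr2), chr14:70077203-70082614 (Egr3), chr15:101254269-101274795 (Nr4a1), chr2:57106830-57124003 (Nr4a2), chr4:48045153-48086447 (Nr4a3) and chr10:127660918-127668568 (Nab2), and the counts cover whole genes rather than single transcripts.

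RefSeq promoter windows on GRCm38.p6 were at hand for 5 of the 7 genes (9 windows, 5 of them for Egr2), and the 250 bases before each start were searched on both strands. The motifs were the cAMP response element TGACGTCA, bound by CREB and related factors, its short site TGACG or CGTCA, the CArG box bound by serum response factor, the MEF2 element, the Egr site GCGNGGGCG and the Nr4a response element AAAGGTCA. A full cAMP response element holds 2 overlapping short sites, but no full element was in these windows. The 3 Nr4a windows each held 4 short sites. Of all 32851 promoter windows of the same length, 17.8% held at least 1 short site and 0.137% held 4 or more. The GC content was 74.4% in the Nr4a1 window, 80% in that of Nr4a2 and 63.6% in that of Nr4a3. All windows were counted without matching for GC content. The Nr4a windows and 1 of Egr2 are printed here, the one of Nr4a3 without the bases that the annotation places in an exon.
Nr4a1 (chr15:101266596-101266845, plus strand): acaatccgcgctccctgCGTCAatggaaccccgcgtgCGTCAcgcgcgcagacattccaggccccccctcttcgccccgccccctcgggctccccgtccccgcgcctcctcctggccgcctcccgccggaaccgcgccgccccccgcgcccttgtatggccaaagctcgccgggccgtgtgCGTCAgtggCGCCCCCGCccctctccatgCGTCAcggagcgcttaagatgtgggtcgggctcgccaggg
Nr4a2 (chr2:57124004-57124253, minus strand): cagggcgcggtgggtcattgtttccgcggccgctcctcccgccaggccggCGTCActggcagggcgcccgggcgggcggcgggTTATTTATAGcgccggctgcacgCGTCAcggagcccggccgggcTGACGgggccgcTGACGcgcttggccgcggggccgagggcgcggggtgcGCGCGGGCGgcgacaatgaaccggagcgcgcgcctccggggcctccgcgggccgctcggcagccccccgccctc
Nr4a3 (chr4:48045055-48045152, plus strand): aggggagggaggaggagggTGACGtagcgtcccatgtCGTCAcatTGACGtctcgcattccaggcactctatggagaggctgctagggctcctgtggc
Egr2 (chr10:67537619-67537868, plus strand): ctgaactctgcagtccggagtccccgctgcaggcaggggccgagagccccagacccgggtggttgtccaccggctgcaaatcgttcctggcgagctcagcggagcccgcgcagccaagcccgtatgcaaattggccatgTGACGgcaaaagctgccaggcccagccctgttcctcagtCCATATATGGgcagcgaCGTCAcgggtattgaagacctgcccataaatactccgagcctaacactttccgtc
Capitals in Nr4a1 mark 4 short sites and, between the last 2 of them, an Egr site, which 4.70% of all windows held. The Nr4a1 stretch lies inside the gene body given above and not at its 5′ end. Capitals in Nr4a2 mark, from the 5′ end, a short site, a MEF2 element (1.69% of windows), 3 more short sites and an Egr site. The stretch of Nr4a3 holds 3 of its 4 short sites. The Egr2 stretch, which precedes 1 of several annotated starts and lies inside the gene body, holds a CArG box 72 to 63 bases before the start, a motif found in 1.47% of all windows, with a short site on either side of it. The Nab2 window held none of the motifs, and the Nr4a response element, in 1.34% of all windows, was in none of the windows searched. A match is a stretch of letters and not a measured binding site.

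Egr1, the best known immediate early member of its family, did not overlap between OT-1 and TG6 at any stage. At early positive selection its normalized count was 749, 542 and 281 in TG6 replicates 1, 2 and 3. It was 726, 1185 and 1071 in F5, and 1901, 1521 and 1133 in OT-1. The OT-1 libraries all lay above the TG6 libraries, with F5 between them and overlapping both. OT-1 exceeded TG6 by 1.61 ± 0.34 (SE) on the log2 scale of normalized count + 1, or 3.06-fold (adjusted p = 0.0014, limma over all 16372 genes). Of the 7 genes, Egr1 alone was called (an adjusted p under 0.05) in this comparison, and it was higher, as were 15.4% of all genes tested, while 12.4% of all genes and no member were lower. F5 exceeded TG6 by 1.00 ± 0.34 without passing the adjusted threshold (adjusted p = 0.091).

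At late positive selection the difference in Egr1 between OT-1 and TG6 was again called, although not when only these groups were fitted (adjusted p = 0.056). TG6 read 895 and 901, OT-1 read 4069, 2801 and 1250, and the groups did not overlap. The log2 difference was 1.43 ± 0.38 (adjusted p = 0.014, limma). The F5 libraries (996, 1359 and 1037) also lay under OT-1 on average, by 1.11 ± 0.34 (adjusted p = 0.022), although F5 replicate 2 was above OT-1 replicate 3. The spread within OT-1 late was the widest of Egr1 in any group, at 3.26-fold. Without either TG6 late library, or without OT-1 late replicate 1, the comparison with TG6 was not called, and over the leave-one-out fits its adjusted p ran from 0.00071 to 0.094. That with F5 was not called without F5 late replicate 1 or 3 or OT-1 late replicate 1 or 2 (adjusted p from 0.001 to 0.16), nor when only these groups were fitted (0.074). In mature CD8SP cells OT-1 (1316, 1246 and 1120) still did not overlap TG6 (786, 666 and 458), but the difference of 0.98 ± 0.34 was not called (adjusted p = 0.076). F5 mature libraries (1025, 1103 and 1375) did not overlap TG6 either (difference 0.90 ± 0.34, adjusted p = 0.14) and overlapped OT-1.

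**Figure D1:**
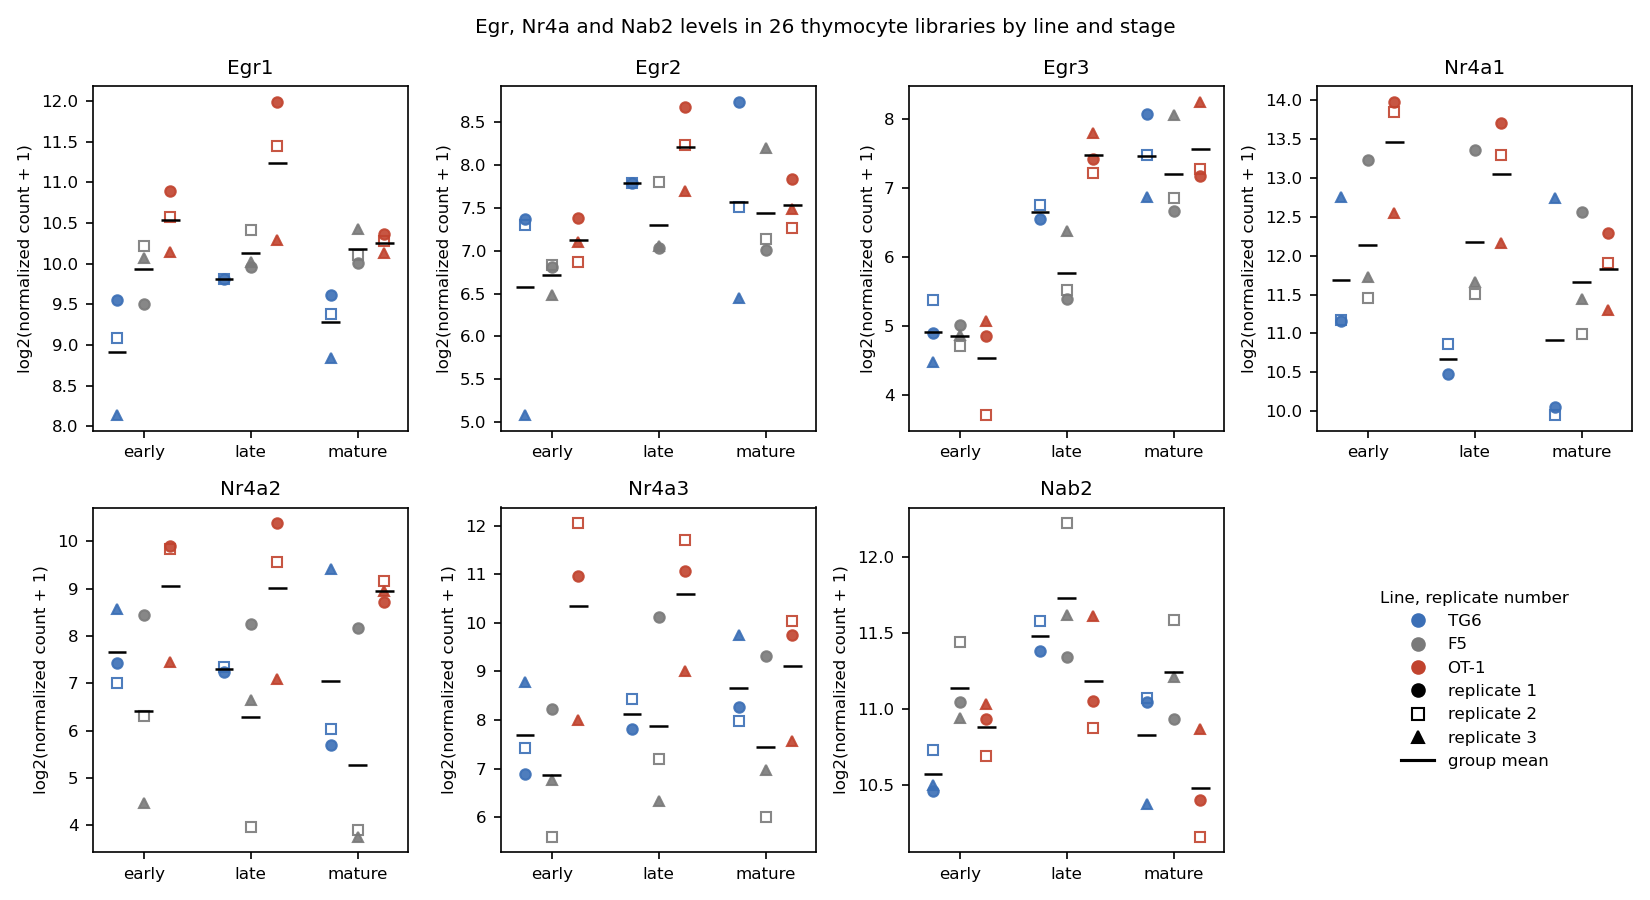
Level of each of the 7 genes as log2(normalized count + 1) in 26 libraries (points; shape gives the replicate number) by stage and line, with group means as bars. Egr1 separates OT-1 from TG6 at all 3 stages, Egr3 is higher at mature than at early in each line, and the Nr4a genes spread widely within groups, with F5 replicate 1 and TG6 replicate 3 high.

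Egr2, which also acts in T cell tolerance, was not called between lines in any comparison. Its OT-1 minus TG6 difference was 0.53 (95% interval -0.53 to 1.60) at early, 0.42 (-0.78 to 1.61) at late and -0.03 (-1.10 to 1.03) at the mature stage, intervals that leave room for a difference of more than 1 on the log2 scale in either direction at maturity. The lowest Egr2 value of all libraries was 32.9 in TG6 early replicate 3, against 164 and 156 in the other TG6 early libraries. On the log2 scale those other libraries (7.368 and 7.295) lay above the OT-1 early mean (7.12). The positive sign of the early difference therefore rests on TG6 replicate 3. The same replicate number was also lowest in TG6 mature cells (425, 181 and 86.0 in replicates 1, 2 and 3).

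Egr3, a close relative of Egr2, differed between lines at late positive selection. It read 171, 148 and 221 in OT-1 and 40.9, 45.2 and 82.5 in F5, with no overlap, and OT-1 exceeded F5 by 1.71 ± 0.41 (3.27-fold, adjusted p = 0.004). This call held in all 6 leave-one-out fits. TG6 late libraries (93.0 and 107) lay between them and overlapped neither, but were called against neither: OT-1 minus TG6 was 0.82 (adjusted p = 0.25) and F5 minus TG6 was -0.89 (adjusted p = 0.37).

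All average differences of the 3 Nr4a genes between OT-1 and the other lines were positive, but the spread inside groups was wide and few were called. Nr4a1 at early positive selection read 2283, 2299 and 6879 in TG6 replicates 1, 2 and 3, 9595, 2806 and 3371 in F5, and 16130, 14650 and 6006 in OT-1. OT-1 replicates 1 and 2 were the 2 highest values of all libraries, while OT-1 replicate 3 lay below TG6 replicate 3. The difference from TG6 was 1.77 ± 0.69 (adjusted p = 0.06). With a replicate block, which treats libraries of 1 line and number as 1 mouse, it was 1.77 ± 0.59 (adjusted p = 0.029). At late positive selection Nr4a1 read 1428 and 1864 in TG6 against 13330, 9993 and 4592 in OT-1, without overlap, and the difference of 2.38 ± 0.77 (5.20-fold) was called (adjusted p = 0.04). The call held without OT-1 late replicate 3 and was lost without any other single library of the 5, with an adjusted p of up to 0.21. It was also lost without the filter on low values (0.063) and without a trend in the prior variance (0.061).

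Nr4a3 showed the largest average differences at early positive selection and also large errors. It read 117, 170 and 441 in TG6, 298, 47.4 and 107 in F5, and 2005, 4245 and 255 in OT-1. OT-1 replicates 1 and 2 stood far above every other early library, and OT-1 replicate 3 lay within the range of the other lines. OT-1 exceeded F5 by 3.48 ± 1.09 (11.2-fold, adjusted p = 0.038), a call that was kept without F5 early replicate 1 or OT-1 early replicate 3 and lost without any other of the 6 libraries (adjusted p of up to 0.21), without the filter (0.061) or without the variance trend (0.059). OT-1 exceeded TG6 by 2.64 ± 1.09 (adjusted p = 0.075), and with the replicate block by 2.64 ± 0.91 (adjusted p = 0.035). At late positive selection the values were 223 and 346 in TG6, 1105, 146 and 79.1 in F5 and 2136, 3344 and 512 in OT-1. OT-1 did not overlap TG6 there, but the difference of 2.47 ± 1.22 was not called (adjusted p = 0.18). The difference from F5, 2.71 ± 1.09, was called with the replicate block (adjusted p = 0.034) and not without it (adjusted p = 0.075).

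Nr4a2 was the most variable of the 7 genes. Within F5 mature cells it read 287, 13.9 and 12.5 in replicates 1, 2 and 3, a spread of 22.9-fold, and its residual SD was larger than that of 98.8% of all genes tested (Nr4a3 97.8%, Nr4a1 90.6%, Nab2 52.4%). In mature OT-1 cells it read 422, 571 and 494, without overlap with F5. OT-1 exceeded F5 there by 3.67 ± 1.25 (12.7-fold, adjusted p = 0.038), a call kept without F5 mature replicate 1 and lost without any other of the 6 libraries (adjusted p of up to 0.17), without the filter (0.061) or without the variance trend (0.056). TG6 mature libraries (51.1, 64.5 and 678) overlapped F5 and reached above OT-1. In no other comparison of lines was Nr4a2 called.

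Nab2, the corepressor, went the other way in mature cells. It read 1352, 1143 and 1871 in OT-1 against 1954, 3072 and 2364 in F5, with no overlap. OT-1 was 1.70-fold lower (log2 difference -0.76 ± 0.24, adjusted p = 0.025), and the call was kept without F5 mature replicate 1 or OT-1 mature replicate 3 and lost without any other of the 6 libraries (adjusted p of up to 0.12). At the other stages Nab2 was not called between any pair of lines. Its lowest adjusted p there was 0.11, for OT-1 against F5 at late positive selection.

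Counted over all members, each line comparison called at most 2 of the 7 genes. Against TG6, OT-1 had 2 called higher at the late stage (9.34% of all genes higher, 6.21% lower, no member lower) and 0 at the mature stage (4.67% and 5.08% of all genes), where limma gave 1 member at an unadjusted p under 0.05. Against F5, OT-1 had 1 called at early (12.7% of all genes), 2 at late (24.0%) and 2 at mature (23.3%). F5 against TG6 had 0 at each stage (6.46%, 4.97% and 6.64% of all genes), with 2, 0 and 1 members at an unadjusted p under 0.05. The replicate block raised the count for OT-1 against TG6 at early from 1 to 3 (28.0% of all genes) and for OT-1 against F5 at late from 2 to 3 (24.2%). The median log2 difference of the 7 genes between OT-1 and TG6 was 1.40 at early, 1.43 at late and 0.46 at mature, against 0, 0 and -0.01 over all genes tested. Comparisons that involve the same line share its libraries.

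**Figure D2:**
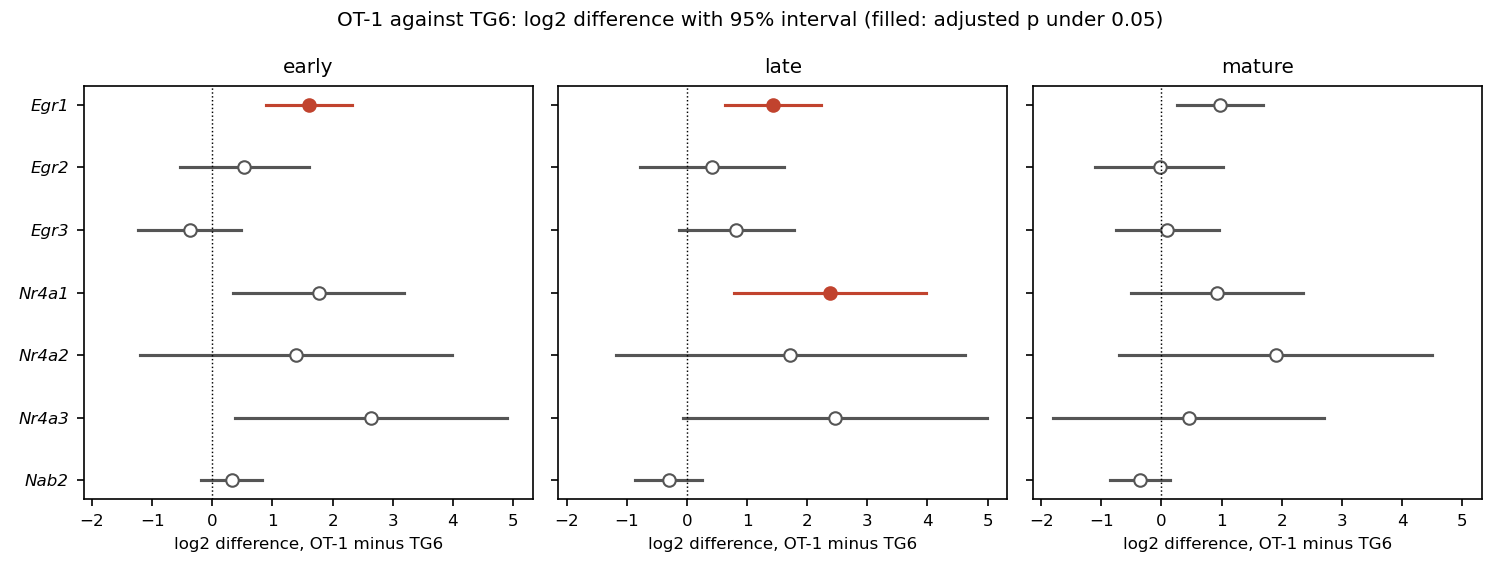
Log2 difference between OT-1 and TG6 for each gene at each stage (points) with 95% intervals from limma; filled red points passed an adjusted p of 0.05. Egr1 lies at 1.61, 1.43 and 0.98, with intervals of 0.9 to 2.33, 0.63 to 2.23 and 0.26 to 1.69, and was not called at mature. The Nr4a intervals span several log2 units.

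Across stages, Egr3 rose in all 3 lines and had the largest change of the 7 genes from early to mature. From early to mature it went from 28.7, 40.8 and 21.3 to 268, 177 and 116 in TG6 replicates 1, 2 and 3. It went from 31.2, 25.1 and 28.2 to 101, 115 and 267 in F5, and from 28.0, 12.1 and 32.5 to 143, 155 and 304 in OT-1. In each line every mature library was above every early one. The rise was 2.55 ± 0.41 in TG6 (adjusted p = 3.5e-05), 2.34 ± 0.41 in F5 (adjusted p = 0.00023) and 3.02 ± 0.41 in OT-1 (adjusted p = 9.8e-06), and each was called in all leave-one-out fits. It was the only member called from early to mature without a block, against 19.4% of all genes higher and 15.2% lower in TG6, 10.8% and 8.79% in F5, and 12.8% and 10.5% in OT-1.

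The steps of this rise were called at different stages. In OT-1 it rose by 2.93 ± 0.41 from early to late (adjusted p = 2.2e-05), and late and mature cells differed by 0.09 (adjusted p = 0.90). In F5 it rose by 1.43 ± 0.41 from late to mature (adjusted p = 0.016), after a difference of 0.91 from early to late (adjusted p = 0.11, and 0.022 with the replicate block). In TG6 it rose by 1.74 ± 0.46 from early to late (adjusted p = 0.007), and the difference from late to mature was 0.82 (adjusted p = 0.22) and with the block 1.08 (adjusted p = 0.029). The interaction for the difference of OT-1 from TG6, at early minus at late, was -1.20 ± 0.62 (adjusted p = 0.48), and with the block -1.46 ± 0.44 (adjusted p = 0.077), so no difference in timing was shown. The blocked values of TG6 late rest on pairing by number libraries whose titles follow another pattern than those of the other TG6 groups. The step from early to late was not tested between OT-1 and F5. The late to mature call in F5 was lost without F5 late replicate 1, F5 late replicate 2 or F5 mature replicate 3, with an adjusted p of up to 0.11, and that from early to late in TG6 without TG6 late replicate 2 (0.069) or without every library of TG6 replicate 1 (0.062) or 2 (0.061). The late to mature call in F5 was also lost when only these groups were fitted (0.073).

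Nab2 had its highest mean at late positive selection in each line. In TG6 it read 1410, 1700 and 1449 at early, 2661 and 3052 at late, and 2113, 2149 and 1327 at mature. F5 read 2115, 2782 and 1968, then 2587, 4769 and 3147, then 1954, 3072 and 2364. OT-1 read 1952, 1650 and 2088, then 2121, 1879 and 3122, and then the mature values given above. Within every replicate number followed, Nab2 was higher at late than at early and higher at late than at mature. The rise to late was called in TG6 (0.91 ± 0.27, adjusted p = 0.015) and, with the replicate block, in F5 (0.58 ± 0.12, adjusted p = 0.0013), and not in OT-1 (0.30, blocked adjusted p = 0.068). The call in TG6 was lost without TG6 late replicate 2 (0.13), stood at the threshold without TG6 late replicate 1 (0.05), and was lost without every library of TG6 replicate 1 (0.1) or 2 (0.13). The fall from late to mature was called in OT-1 (-0.70 ± 0.24, adjusted p = 0.037) and, with the block, in TG6 (-0.52, adjusted p = 0.014) and F5 (-0.48, adjusted p = 0.0064). Of the fits that left out 1 library, the call in OT-1 was kept only without OT-1 late replicate 2 or mature replicate 3 (adjusted p of up to 0.18), and it was lost without any 1 of the 3 mice (up to 0.14), without the filter (0.061) and without the variance trend (0.055). From early to mature, Nab2 fell in OT-1 with the block (-0.41 ± 0.12, adjusted p = 0.017) and was not called in TG6 (0.26, adjusted p = 0.091), and the blocked interaction between them was 0.67 ± 0.17 (adjusted p = 0.023).

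Egr1 and Egr2 were called between stages in OT-1, and Egr2 in TG6. Egr1 in OT-1 fell from late to mature by 0.98 on the log2 scale (SE 0.34, adjusted p = 0.041), in each of the 3 mice by 0.16 to 1.63 in size. With the replicate block the rise before it, from early to late, was called as well for Egr1 (0.71 ± 0.21, adjusted p = 0.014) and for Egr2 (1.08 ± 0.30, adjusted p = 0.011). Egr2 in OT-1 read 166, 116 and 136 at early, 408, 299 and 207 at late and 228, 153 and 178 at mature. In TG6 the block called a rise of Egr2 from early to mature of 0.98 ± 0.30 (adjusted p = 0.016, against 0.15 without the block). In F5 neither Egr1 nor Egr2 was called between stages. The fall of Egr1 was called without OT-1 late replicate 3 and not without any other of the 6 libraries (adjusted p of up to 0.24). It was also lost without the filter (0.067), without the variance trend (0.06) and when only these groups were fitted (0.074), while with the block its adjusted p was 0.0018.

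Nr4a1 fell with maturation in OT-1 when libraries of the same number, taken as 1 mouse, were compared. It read 16130, 13330 and 5010 at early, late and mature in OT-1 replicate 1, 14650, 9993 and 3848 in replicate 2, and 6006, 4592 and 2518 in replicate 3. Each mouse showed the same downward order at a different level. The difference from early to mature was -1.62 on the log2 scale, with an SE of 0.69 and an adjusted p of 0.098 without the block and an SE of 0.18 and an adjusted p of 6e-06 with it, and the groups did not overlap. The step from late to mature was -1.22 ± 0.18 with the block (adjusted p = 0.00013). With the block Nr4a1 also fell from early to mature in TG6 (-0.77 ± 0.18, adjusted p = 0.0029), although TG6 replicate 3 read 6879 and 6859, and from late to mature in F5 (-0.51 ± 0.18, adjusted p = 0.049). The fall of OT-1 from early to mature exceeded that of F5 by 1.15 ± 0.26 (blocked interaction, adjusted p = 0.018, and 0.70 without the block).

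Nr4a3 moved in opposite directions in OT-1 and TG6 within mice. In OT-1 it read 2005, 4245 and 255 at early and 859, 1045 and 189 at mature, lower in each mouse. In TG6 it read 117, 170 and 441 at early and 306, 251 and 856 at mature, higher in each mouse. With the block the change was -1.22 ± 0.36 in OT-1 (adjusted p = 0.016) and 0.96 ± 0.36 in TG6 (adjusted p = 0.04), and the difference between them was 2.19 ± 0.51 (blocked interaction, adjusted p = 0.013, and 0.60 without the block). In OT-1 the fall took place from late to mature (-1.48 ± 0.36, adjusted p = 0.0047 with the block and 0.35 without). In F5 Nr4a3 rose on average from early to late (1.02 ± 0.36, adjusted p = 0.036 with the block and 0.55 without). It rose in 2 of the F5 mice and fell in replicate 3, from 107 to 79.06. Nr4a2 was called between no stages in any line, with or without the block.

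**Figure D3:**
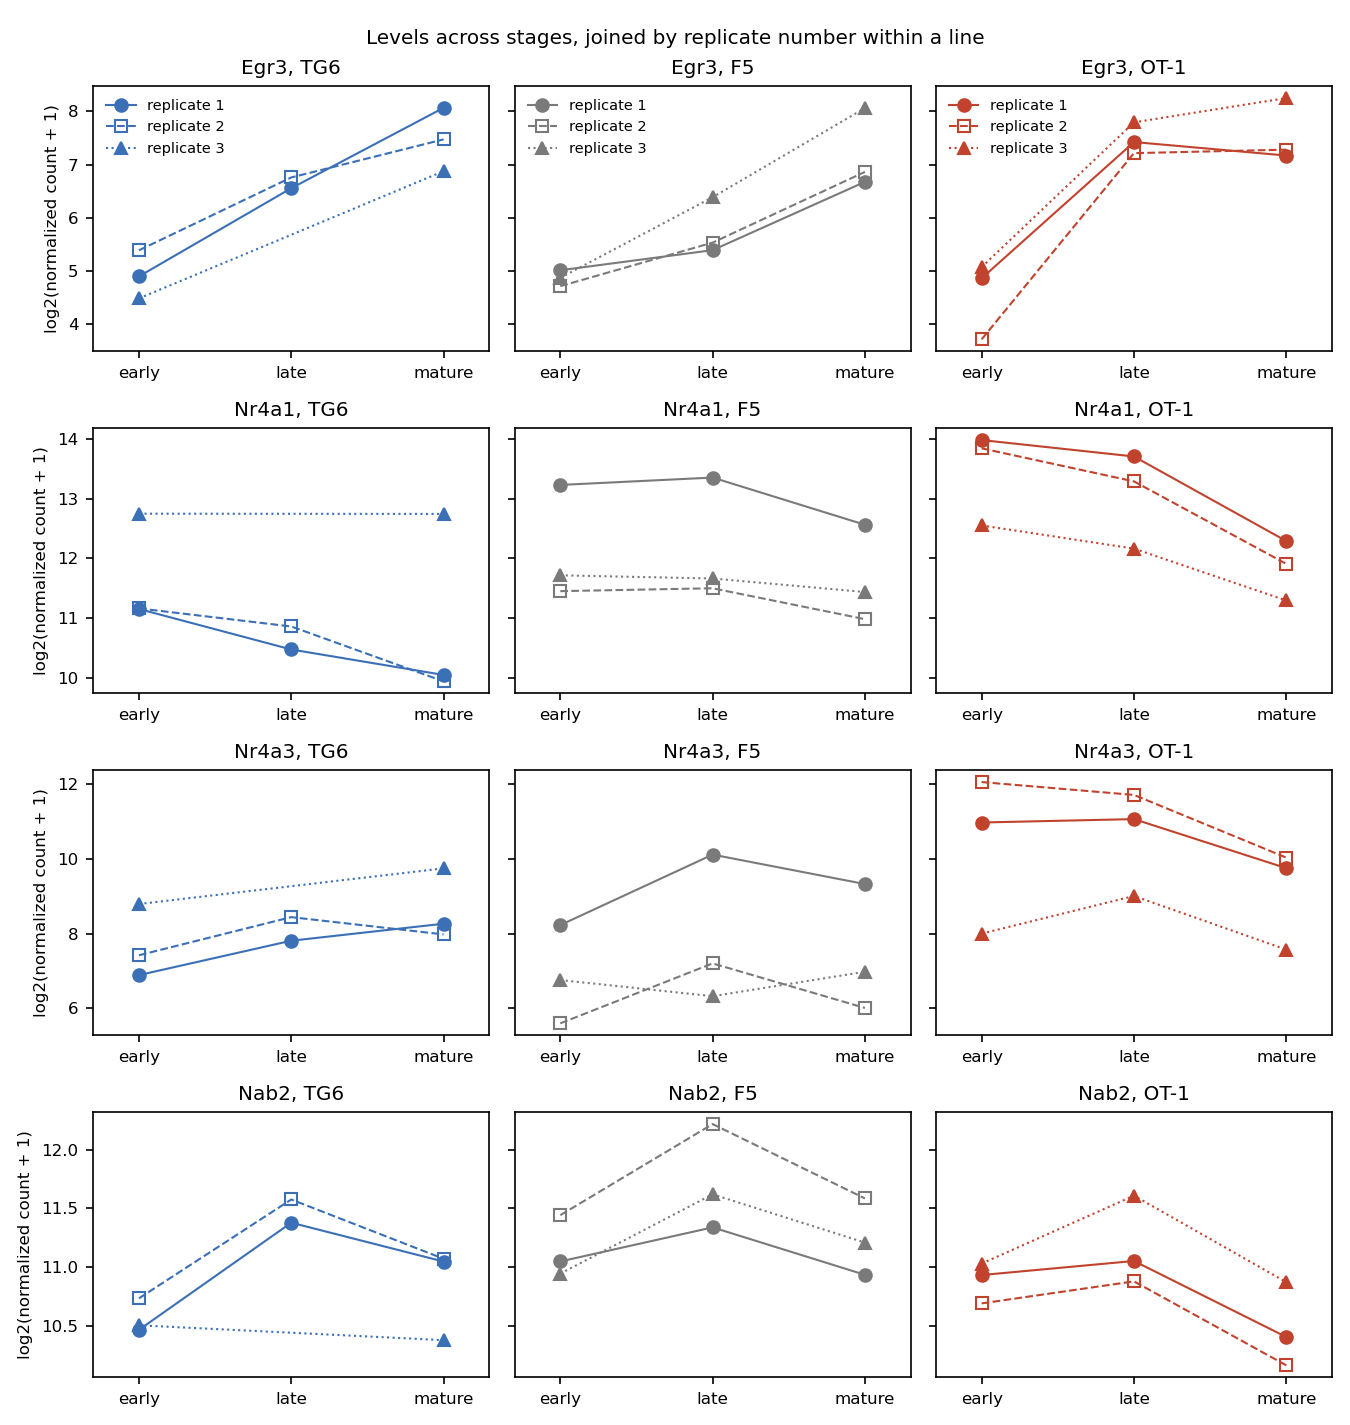
Level of Egr3, Nr4a1, Nr4a3 and Nab2 as log2(normalized count + 1) at the 3 stages, 1 column per line; lines join libraries with the same replicate number within a line. Egr3 is higher at mature than at early in every mouse, Nab2 is highest at late in each followed mouse, and the Nr4a1 lines of OT-1 run downward in parallel.

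Counts over stages show how far the block mattered. Without it, 2 of 7 genes were called from early to late in TG6 (25.4% of all genes), 0 in F5 (26.7%, with 2 at an unadjusted p under 0.05 in limma) and 1 in OT-1 (26.7%). From late to mature the counts were 0 in TG6 (22.3%, with 1 unadjusted), 1 in F5 (20.5%) and 2 in OT-1 (24.4%). With the block, counts from early to late were 3 in F5 (35.6% of all genes) and 3 in OT-1 (35.5%), and from late to mature 2 in TG6 (24.5%), 3 in F5 (29.3%) and 4 in OT-1 (35.0%). From early to mature, 4 were called in TG6 (42.6%) and 4 in OT-1 (31.3%), and Egr3 alone in F5 (27.9%). No interaction was called without the block: OT-1 against TG6, OT-1 against F5 and F5 against TG6 between early and mature (4.20%, 1.64% and 4.40% of all genes), and OT-1 against TG6 between early and late (2.04%) and between late and mature (1.17%) each had 0 of 7 genes, and 0 at an unadjusted p under 0.05. With it, 2 members were called for OT-1 against TG6 between early and mature (7.77% of all genes) and 1 for OT-1 against F5 (5.41%).

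When the 9 groups were ordered by mean log2 level, no pair of neighbours differed for any gene (the lowest adjusted p was 0.14). OT-1 late was at the top for Egr1 (mean 2707 ± 1412, SD, n = 3), TG6 early was at the bottom (524 ± 235), and the 3 OT-1 groups, then the 3 F5 groups, then the 3 TG6 groups followed each other. For Egr3, OT-1 mature (200.5 ± 89.8) was at the top, followed by OT-1 late, and the 3 early groups were at the bottom. For Nr4a1 it ran from OT-1 early (12260 ± 5468) through OT-1 late to F5 late.

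The spread of the Nr4a genes within groups followed replicate numbers. F5 replicate 1 was the highest F5 library at all 3 stages for each of the 3 Nr4a genes, and for no Egr gene. The same held for 12.7% of all genes tested, for 8 of 9 ERK feedback genes (the Dusp, Spry and Spred inhibitors of the pathway), for 15 of 19 other immediate early genes and for 0 of 9 heat shock genes, with the other 4 lists at 33.3 to 44.4%. TG6 replicate 3 was the highest TG6 library at early and mature for 3 members (22.2% of all genes), again the Nr4a genes, while its Egr1, Egr2 and Egr3 were the lowest. OT-1 replicate 3 was the lowest OT-1 library at all stages for 3 members (12.4% of all genes), namely Egr1, Nr4a1 and Nr4a3. In TG6 the pattern held for 3 of 9 ERK feedback genes, 11 of 19 other immediate early genes and 3 of 9 heat shock genes, and in OT-1 for 1, 9 and 0, so the ERK feedback genes stood near all genes there. These replicate patterns were chosen after the values were seen.

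Deviations from group means were used to describe which members moved together, with no test and with libraries of 1 mouse not independent of each other. Over the 26 libraries, Pearson's r was 0.86 for Nr4a1 with Nr4a2, 0.85 for Nr4a1 with Nr4a3 and 0.74 for Nr4a2 with Nr4a3. Egr1 and Egr2 had an r of 0.75, and Egr2 and Egr3 of 0.50. The Nr4a genes deviated against Nab2 (r of -0.73 for Nr4a1, -0.69 for Nr4a2 and -0.74 for Nr4a3) and against Egr3 (-0.54, -0.45 and -0.62).

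The mitochondrial ribosomal RNA mt-Rnr2 moved with the Nr4a genes. Its normalized count was 3007 to 11010 in TG6, 2181 to 10030 in F5 and 8191 to 15780 in OT-1, so that it too was highest in F5 replicate 1 and TG6 replicate 3 within their lines and lowest in OT-1 replicate 3. Its deviations had an r of 0.94 with Nr4a1, 0.86 with Nr4a2, 0.84 with Nr4a3 and -0.73 with Nab2, against -0.36 with Egr1, -0.50 with Egr2 and -0.52 with Egr3. Of the 9 groups, the library lowest in mt-Rnr2 was also the lowest in Nr4a1 in 9, in Nr4a2 in 4 and in Nr4a3 in 8, and the library highest in it was the highest in 7, 8 and 8. Between lines mt-Rnr2 was higher in OT-1 than in TG6 by 1.18 at early (adjusted p = 0.12) and 1.64 at late (adjusted p = 0.077), and higher than in F5 by 1.67 at late (adjusted p = 0.032), in the same direction as the Nr4a genes. At mature it was higher in OT-1 than in TG6 by 1.17 (adjusted p = 0.19), where no Nr4a gene was called (Nr4a1 0.92 ± 0.69, Nr4a2 1.9 ± 1.25, Nr4a3 0.46 ± 1.09). With the block it was also called higher in OT-1 than F5 at early (1.53 ± 0.46, adjusted p = 0.031, against 0.074 without) and at mature (1.51 ± 0.46, adjusted p = 0.023, against 0.052 without), where Nr4a3 and Nr4a2 were called. Between early and mature cells of the same mice it differed by -0.36 ± 0.13 in OT-1 (blocked adjusted p = 0.053), where Nr4a1 changed by -1.62, and it fell in TG6 (-0.34 ± 0.13, blocked adjusted p = 0.048), where Nr4a1 changed by -0.77. Its blocked interactions between early and mature were 0.01 ± 0.19 for OT-1 against TG6 (adjusted p = 0.98) and 0.02 ± 0.19 for OT-1 against F5 (adjusted p = 0.97). The share of mitochondrial transcripts was 1.94 to 3.29% in TG6, 1.51 to 2.50% in F5 and 2.55 to 3.58% in OT-1, and its deviations had an r of 0.89 with Nr4a1. The part of this library property in the Nr4a differences between lines was not tested.

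**Figure D4:**
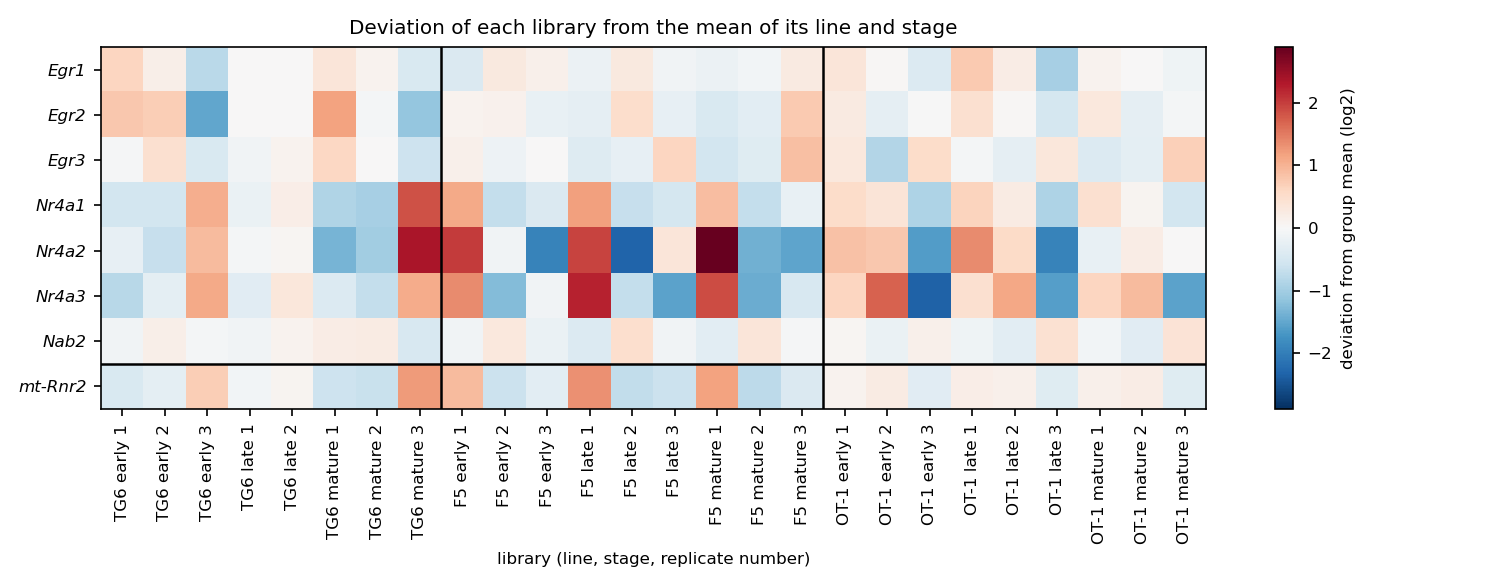
Deviation of each library (columns, by line, stage and replicate number) from the mean of its group, in log2 units, for the 7 genes and mt-Rnr2 (rows). F5 replicate 1 and TG6 replicate 3 are red in the 3 Nr4a rows and in mt-Rnr2 and pale or blue in the Egr rows.

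**Figure D5:**
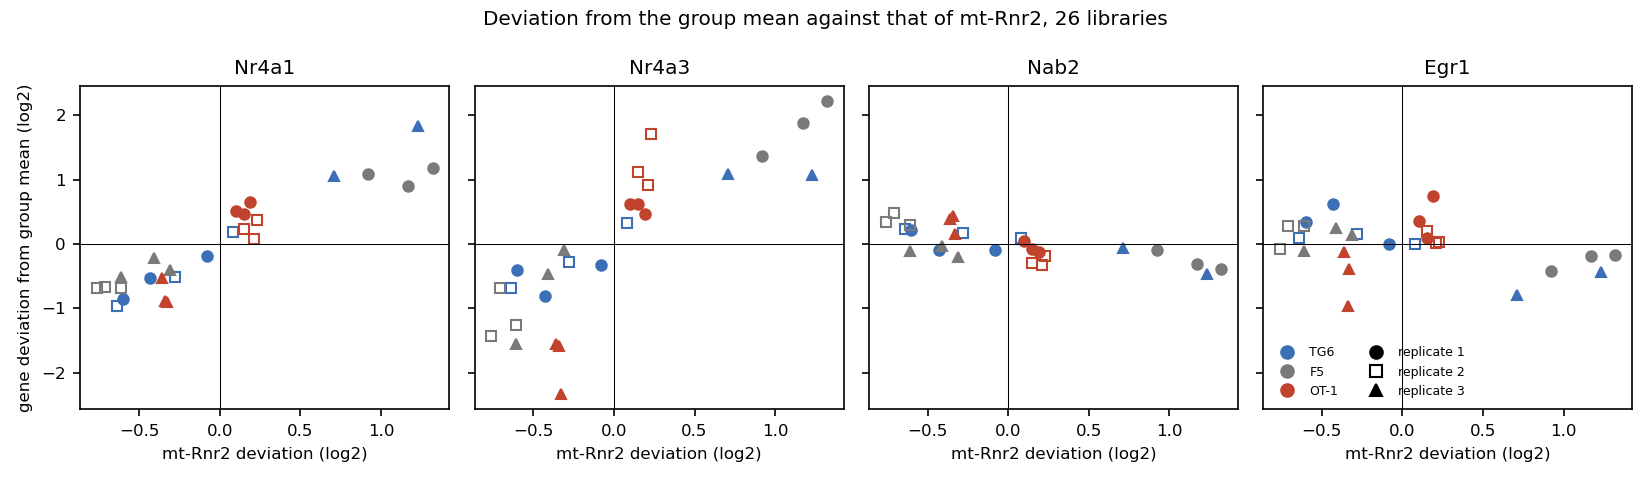
Deviation from the group mean (log2) of Nr4a1, Nr4a3, Nab2 and Egr1 against that of mt-Rnr2 in 26 libraries; color gives the line and shape the replicate number. Points of Nr4a1 and Nr4a3 rise with mt-Rnr2 (r of 0.94 and 0.84), those of Nab2 fall (-0.73), and those of Egr1 scatter (-0.36).

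The genes whose levels over the 26 libraries were most like each member, among 11016 genes with a mean of at least 50, differed between members. They were Mtus2, Camk2b and Ano8 for Egr1 (r of 0.80 to 0.82) and Gm11613, Nlrc3 and Sp100 for Egr2 (0.75 to 0.79). B4galt7, Igflr1 and Il27ra followed Egr3 (0.93 to 0.94). Dusp5, an ERK phosphatase gene, 1190002N15Rik and P2ry14 followed Nr4a1 (0.90 to 0.93), mt-Rnr2, Plk2 and Btaf1 followed Nr4a2 (0.84 to 0.89), and Coq10b, Bend3 and Zfand2a followed Nr4a3 (0.90 to 0.92). Agpat1, Pbx2 and Prmt2 followed Nab2 (0.86 to 0.89). The 26 points share mice and libraries. Of these 21 genes, 4 were again among the 3 most alike when the 9 group means were used.

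Other genes of the same signaling response were compared through lists, which were not chosen for how they moved here except as far as earlier results of these data were known. Their counts stand against the shares over all genes: 15.4% higher and 12.4% lower in OT-1 than TG6 at early, 9.34% and 6.21% at late, and 4.67% and 5.08% at mature. From early to mature these shares were 19.4% and 15.2% in TG6, 10.8% and 8.79% in F5, and 12.8% and 10.5% in OT-1. Of 21 other TCR signal response genes, 14 rose and 0 fell in early OT-1 cells relative to TG6 (median 0.86, against 0 for all genes). Itm2a, a membrane protein gene induced in positive selection, rose from 785 ± 67.4 in TG6 to 8881 ± 1481 in OT-1 (SD, n = 3; log2 difference 3.49 ± 0.21, adjusted p = 5.3e-11). Pdcd1, which encodes the inhibitory receptor PD-1, differed by 2.31 ± 0.43 (adjusted p = 0.00036), Tagap by 2.10 ± 0.47 (adjusted p = 0.0021) and Cish, which reached a mean of only 35.2 in OT-1, by 1.98 ± 0.71 (adjusted p = 0.041). At late positive selection 8 were higher and 1 lower, and at the mature stage 5 were higher and 0 lower. From early to mature, 12 of the 21 rose and 5 fell in TG6, 6 rose and 4 fell in F5, and 4 rose and 7 fell in OT-1.

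Of 19 other immediate early genes, 7 were higher and 1 lower in OT-1 at early positive selection (median 1.34). The AP-1 gene Fosl2 differed by 4.32 ± 1.06 (means 2352 and 90.8, adjusted p = 0.0044), Rgs1 by 2.85 ± 0.44 (adjusted p = 5e-05) and Fos by 2.16 ± 0.58 (adjusted p = 0.0079), while Atf3 was listed at 0 in all TG6 early libraries and had a mean of 13.0 in OT-1. At late 5 were higher and 0 lower, and at mature 1 and 0. Between early and mature, 4 rose and 2 fell in TG6, and 1 rose and 1 fell in each of F5 and OT-1. Of 9 ERK feedback genes, 3 were higher and 0 lower at early: Dusp4 by 1.66 ± 0.55, Dusp1 by 1.26 ± 0.41 and Spred2 by 0.39 ± 0.10 (adjusted p = 0.029, 0.025 and 0.007). At late 3 were higher, and at mature 0 were called in either direction. Maturation from early cells was accompanied by 1 rise and 4 falls in TG6, with 0 called in F5 and 1 rise and 2 falls in OT-1.

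Of 12 genes reported downstream of Egr or Nr4a factors, 6 were higher and 3 lower in OT-1 at early. Those with the largest non-overlapping differences were Gpr83 (1.86 ± 0.36, adjusted p = 5e-04), the adhesion receptor gene Cd44 (1.59 ± 0.21, adjusted p = 5.3e-06), Ndrg1 (1.28 ± 0.20, adjusted p = 5e-05) and the survival gene Bcl2 (1.21 ± 0.18, adjusted p = 2.5e-05). The 3 lower genes, named after their values were seen, were the cytokine signaling inhibitor gene Socs1 (-1.13 ± 0.29, adjusted p = 0.006) and the diacylglycerol kinase genes Dgka (-0.46 ± 0.14, 0.016) and Dgkz (-0.46 ± 0.09, 0.00077). At late 3 were higher and 1 lower. At mature Cd44 was again higher (1.95 ± 0.21, adjusted p = 9.7e-07), while Gpr83 (-2.47 ± 0.36, adjusted p = 7e-05) and Bcl2 (-0.63 ± 0.18, adjusted p = 0.025) were lower in OT-1, the opposite of their direction at early. Mature compared with early cells had 6 higher and 2 lower in TG6, 4 and 3 in F5, and 5 and 2 in OT-1.

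Of 8 Egr and Nab partners tested (Egr4 did not pass the filter), 2 were higher and 1 lower in OT-1 at early: Srf, the serum response factor, by 0.41 ± 0.14, Chd4 by 0.21 ± 0.07 and the ternary complex factor Elk4 by -0.31 ± 0.10 (adjusted p = 0.031, 0.032 and 0.031). These counts, and those of the Nr4a partners at early, are near the shares over all genes given above. At late 1 was higher and 1 lower, and at mature 1 and 0. Between early and mature the counts were 1 higher and 2 lower in TG6, 1 and 0 in F5, and 2 and 0 in OT-1. Of 9 Nr4a partners and regulators, 2 were higher and 1 lower at early: the retinoid receptor gene Rxra by 1.01 ± 0.28, and among the class II deacetylases, Hdac5 by 0.49 ± 0.12 and Hdac7 by -0.31 ± 0.09 (adjusted p = 0.0099, 0.0051 and 0.012). At late and at mature the same 2 genes, Rxra and Hdac5, were higher and 0 were lower, with Rxra at 1.00 ± 0.31 (adjusted p = 0.034) and then 1.78 ± 0.28 (adjusted p = 0.00019). Mature against early cells had 2 higher and 2 lower in TG6, 3 and 1 in F5, and 3 and 2 in OT-1. Of 9 heat shock and stress genes tested (of 10 listed), 4 were higher and 0 lower at early, with Hspa8 at 1.24 ± 0.16, Hspe1 at 1.14 ± 0.12, Hspd1 at 0.96 ± 0.21 and Hsp90aa1 at 0.87 ± 0.25 (adjusted p = 6.6e-06, 5.7e-07, 0.0016 and 0.013). At late 2 were higher and 1 lower and at mature 0 were called. Between early and mature 4 rose in TG6 and 1 in each of F5 and OT-1, and 0 fell.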

How the data were processed

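RNA was measured in 26 libraries of sorted thymocytes. The submitters' processing notes name Trimmomatic 0.32 for trimming, Bowtie2 2.3.2 with mm10 for alignment and RSEM 1.2.31 for gene counts. The authors deposited signal values, which are those counts divided by DESeq2 size factors. Between 6.62 and 73.7% of a library's low values came out as whole multiples of 1 read (within 0.1), which is short of nearly all. No count test was therefore run, and the depth of each library in reads is unknown. Values were analysed as log2(value + 1) in limma 3.58.1 (R 4.3.3), with 1 mean for each of 9 groups, 17 residual degrees of freedom, a prior variance that follows mean expression and Benjamini-Hochberg adjustment over 16372 genes within each comparison, and fold changes are on that scale, which understates changes of low genes. A gene was called under an adjusted p of 0.05.

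Samples were grouped by line and sort population. The labels call each number a biological replicate of its line, and the design text gives 3 mice a line, each sorted into 3 populations, so a number within a line was taken as 1 mouse, also for the 2 TG6 late libraries, whose titles follow another pattern (their same-number correlations were 0.023 to 0.0507). Deviations of same-numbered libraries correlated at 0.106 to 0.34 in F5, 0.0189 to 0.178 in OT-1 and 0.023 to 0.274 in TG6. The replicate block was an estimated correlation of 0.28 within a mouse for line comparisons and a term per mouse (11 residual degrees of freedom) for stages and interactions. Its values stand beside a result where they changed a call.

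The 7 genes and the lists were chosen with earlier results of these data known. Named were all 7 genes, for each the 3 genes of highest correlation, and up to 4 genes a list with the largest called OT-1 to TG6 difference at early positive selection without overlap. Exon lengths are from GENCODE vM21 and promoters from RefSeq.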

Additional observations from a re-analysis of the deposited data

Results flagged for a closer look

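With the replicate block, the difference between OT-1 and TG6 in Nr4a3 was larger at early than at mature positive selection by 2.19 ± 0.51 on the log2 scale (limma, adjusted p = 0.013), a test of the difference between stages itself. The same comparison gave 0.67 ± 0.17 for Nab2 (adjusted p = 0.023). For Nab2 the difference changed sign, from 0.32 at early to -0.35 at mature, and neither was called. The difference between OT-1 and F5 in Nr4a1 was larger at early than at mature by 1.15 ± 0.26 (adjusted p = 0.018). None of the 3 was called without the block.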

How the results depend on the processing

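Counts of the 7 genes called changed by over 1.5 times in these cases. Fitting only the groups compared gave 2 in place of 1 for OT-1 against TG6 at early, 1 in place of 0 for F5 against TG6 at early, 1 in place of 2 for OT-1 against F5 at late, 0 in place of 1 for F5 from late to mature, and 2 in place of 1 for OT-1 from early to late and from early to mature. In that fit Egr1 was no longer called for OT-1 against TG6 or F5 at late or for OT-1 from late to mature, nor Egr3 for F5 from late to mature, while Egr3 and Nr4a3 were called for OT-1 against TG6 at late. Without the filter, and also without a trend in the prior variance, counts were 0 in place of 1 for OT-1 against F5 at early, 1 in place of 2 for OT-1 against TG6 at late and for OT-1 against F5 at mature, and 0 in place of 2 for OT-1 from late to mature. The calls lost were Nr4a3, Nr4a1, Nr4a2, and Egr1 with Nab2, in that order.

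The replicate block, which pairs libraries of 1 mouse, gave 3 in place of 1 for OT-1 against TG6 at early, 2 in place of 0 for TG6 from late to mature, 4 in place of 1 for TG6 from early to mature, 3 in place of 0 for F5 from early to late, 3 in place of 1 for F5 from late to mature, 3 in place of 1 for OT-1 from early to late, 4 in place of 2 for OT-1 from late to mature, 4 in place of 1 for OT-1 from early to mature, and 2 and 1 in place of 0 for the early to mature interactions of OT-1 with TG6 and F5. It ended no call.

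Leaving out 1 library, or, as an alternative chosen after seeing the data, all libraries of 1 mouse, gave 1 to 3 for OT-1 against TG6, 0 to 2 for OT-1 against F5 and 0 to 1 for F5 against TG6 at early. At late the ranges were 0 to 2 for OT-1 against TG6 and 1 to 4 for OT-1 against F5, and at mature 0 to 1 and 0 to 2. For TG6 they were 0 to 3 from early to late and 1 to 3 from early to mature, for F5 0 to 1 in both steps, and for OT-1 1 to 2 from early to late and 0 to 1 from late to mature. A lone library left in a group was assumed to vary like the others.

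No called difference changed sign. Egr1 between OT-1 and TG6 at early, Egr3 between OT-1 and F5 at late, Egr3 from early to mature in each line and Egr3 from early to late in OT-1 were called in each of these fits. Scaling to equal totals put the median of all genes between -0.13 and 0.04 over the comparisons, for OT-1 against F5 at mature at -0.13 in place of 0.01. The cause of the other changes was not tested. The depth of each library in reads is unknown, and 3 libraries a group limit precision.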
